A study of Mus musculus with 4 samples.

Results

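The regions described here are accessible chromatin at the ends of long non-coding RNA (lncRNA) genes in mouse hair follicle stem cells. They were taken from a single list of 74777 ATAC-seq peaks. A peak was included when it lay on chromosomes 1 to 19 and its midpoint was within 1 kb of either bound of an lncRNA gene in RefSeq. The midpoint also had to be over 1 kb from every bound of a protein-coding gene. A wide peak could therefore still reach over such a bound. Genes named Mir or Sno and pseudogenes were not used. The rule gave 2528 peaks, 3.51% of the 72012 autosomal peaks. All the genes concerned carry the RefSeq biotype lncRNA, and none (0) carries the older biotype ncRNA.

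ATAC-seq uses the transposase Tn5 to insert sequencing adapters into open DNA. The cells were sorted from back skin of female mice at postnatal day 30 as H2BGFP-positive, Sca-1-negative, CD34-positive and CD49f-positive. The series holds a Foxc1 knockout with the genotype K14-H2BGFP, K14Cre, Foxc1 fl/fl, in which Cre is driven by the keratin 14 promoter, and a control with K14-H2BGFP and Foxc1 fl/fl but no Cre, so both carry the reporter and the floxed alleles. Each genotype was 1 library sequenced in 2 runs, and nothing in the labels says how many mice contributed. The 4 runs share the 1 peak list, which has coordinates on mm10 and no score, count or genotype, so knockout and control could not be compared, read depth is unknown, and peak width is the only measure of a peak. Everything below describes this list; no test was made, since peaks and genes of 1 list are not replicates, and the 95% Wilson intervals cover counting error only.

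Long non-coding RNAs are transcripts without a long reading frame, many of them spliced and made by RNA polymerase II like messenger RNAs. Some act in the nucleus as scaffolds or in silencing neighbouring genes, some are hosts from whose introns small nucleolar RNAs are cut, and for others the act of transcription or the DNA of the promoter matters more than the RNA. An accessible region at the start of such a gene is usually its promoter or an enhancer from which transcription begins, while one at the other end may belong to another element. Accessibility does not show that the RNA is made.

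Promoter sequences show what these starts look like. Promoters from RefSeq on GRCm38.p6, which shares its chromosome coordinates with mm10, run from 250 bases before the start of transcription to 50 from it on, and are given here 5′ to 3′ on the strand of the gene. Capitals mark matches, on either strand, to 7 motifs: TGTTTAC for forkhead factors, TGANTCA for AP-1, TGGAAA for the NFAT core, the CCAAT box (CCAAT), the GC box (GGGCGG), the TATA box (TATAAA) and the E-box (CACGTG). A match of AP-1 or the E-box reads the same on both strands, and TATA boxes may overlap. The first 3 starts lay wholly within accessible regions and have many CpG dinucleotides; Snhg12 has none of the 7 motifs. They belong to Oip5os1 (chr2:119594046-119594345, plus strand), Dancr (chr5:74092810-74093109, plus strand) and the small nucleolar RNA host gene Snhg12 (chr4:132308428-132308727, plus strand).
Oip5os1: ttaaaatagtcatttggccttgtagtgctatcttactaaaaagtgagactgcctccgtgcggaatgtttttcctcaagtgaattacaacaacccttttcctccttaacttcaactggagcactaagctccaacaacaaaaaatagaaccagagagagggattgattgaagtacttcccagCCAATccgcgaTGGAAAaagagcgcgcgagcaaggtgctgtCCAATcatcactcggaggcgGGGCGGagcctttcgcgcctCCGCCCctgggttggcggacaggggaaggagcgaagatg
Dancr: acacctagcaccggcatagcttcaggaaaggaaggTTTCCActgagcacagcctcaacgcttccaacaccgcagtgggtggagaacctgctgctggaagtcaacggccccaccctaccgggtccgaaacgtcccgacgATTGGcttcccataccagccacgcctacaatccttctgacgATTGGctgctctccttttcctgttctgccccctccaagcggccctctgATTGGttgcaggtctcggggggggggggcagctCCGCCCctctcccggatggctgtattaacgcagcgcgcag
Snhg12: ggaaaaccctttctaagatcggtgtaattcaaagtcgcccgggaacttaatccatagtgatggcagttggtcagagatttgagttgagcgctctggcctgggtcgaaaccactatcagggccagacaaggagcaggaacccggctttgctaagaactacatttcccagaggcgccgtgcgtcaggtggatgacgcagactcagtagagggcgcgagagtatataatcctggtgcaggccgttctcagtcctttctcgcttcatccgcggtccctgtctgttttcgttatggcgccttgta

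The next 4 were also wholly accessible and show how far open starts can differ. Kcnq1ot1 (chr7:143296498-143296797, minus strand) has 3 CCAAT boxes, Malat1 (chr19:5802623-5802922, minus strand) has none of the 7 motifs, and Tincr (chr17:56554338-56554637, minus strand) is GC-rich but poor in CpG. 1110002J07Rik (chr10:66920335-66920634, minus strand) has an AP-1 motif. It was chosen as the promoter with that motif, few CpGs and the widest start peak outside dense stretches.
Kcnq1ot1: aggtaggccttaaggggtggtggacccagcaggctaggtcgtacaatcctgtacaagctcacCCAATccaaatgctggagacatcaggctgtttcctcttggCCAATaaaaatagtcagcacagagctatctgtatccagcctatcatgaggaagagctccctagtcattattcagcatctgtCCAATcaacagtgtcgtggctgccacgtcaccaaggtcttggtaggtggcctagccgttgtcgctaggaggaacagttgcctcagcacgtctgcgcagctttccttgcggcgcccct
Malat1: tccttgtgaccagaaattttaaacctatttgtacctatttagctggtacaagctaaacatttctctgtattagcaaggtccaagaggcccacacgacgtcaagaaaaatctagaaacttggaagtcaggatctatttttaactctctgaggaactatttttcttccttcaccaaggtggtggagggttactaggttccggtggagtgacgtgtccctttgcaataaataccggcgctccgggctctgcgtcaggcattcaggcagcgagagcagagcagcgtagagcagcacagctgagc
Tincr: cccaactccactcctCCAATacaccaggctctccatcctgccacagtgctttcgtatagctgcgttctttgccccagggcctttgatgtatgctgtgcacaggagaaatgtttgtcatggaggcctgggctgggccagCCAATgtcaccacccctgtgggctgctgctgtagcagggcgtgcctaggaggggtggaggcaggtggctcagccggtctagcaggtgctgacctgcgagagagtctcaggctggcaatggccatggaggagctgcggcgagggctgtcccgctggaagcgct
1110002J07Rik: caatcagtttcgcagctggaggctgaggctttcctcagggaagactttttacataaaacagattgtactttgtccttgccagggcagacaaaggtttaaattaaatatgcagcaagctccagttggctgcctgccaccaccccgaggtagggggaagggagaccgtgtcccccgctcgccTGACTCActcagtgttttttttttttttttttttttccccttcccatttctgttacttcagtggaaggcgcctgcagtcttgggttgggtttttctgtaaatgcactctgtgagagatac

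The last pair had no accessible base (0) in the promoter although both have a ratio of observed to expected CpG above 0.6. They are the promoters of Snhg11 (chr2:158375463-158375762, plus strand) and of the imprinted gene Meg3 (chr12:109540746-109541045, plus strand).
Snhg11: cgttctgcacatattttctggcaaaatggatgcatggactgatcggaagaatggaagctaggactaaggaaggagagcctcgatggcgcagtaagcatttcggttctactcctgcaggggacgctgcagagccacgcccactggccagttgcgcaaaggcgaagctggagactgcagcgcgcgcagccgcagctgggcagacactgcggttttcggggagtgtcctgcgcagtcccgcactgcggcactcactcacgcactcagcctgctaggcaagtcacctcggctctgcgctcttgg
Meg3: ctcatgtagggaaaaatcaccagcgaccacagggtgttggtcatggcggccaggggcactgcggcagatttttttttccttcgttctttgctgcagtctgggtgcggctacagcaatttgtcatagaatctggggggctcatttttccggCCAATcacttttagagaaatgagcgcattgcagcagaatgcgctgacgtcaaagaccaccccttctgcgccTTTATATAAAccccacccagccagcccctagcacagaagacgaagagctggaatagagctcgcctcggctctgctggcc

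The ratio of observed to expected CpG was 0.801 for Oip5os1, 0.649 for Dancr and 0.859 for Snhg12. It was 0.422 for Kcnq1ot1, 0.604 for Malat1, 0.317 for Tincr and 0.352 for 1110002J07Rik. Snhg11 had 0.779 and Meg3 0.602, so a CpG-rich start did not by itself go with a peak.

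Most lncRNA genes had no peak at either end. Of 12390 autosomal lncRNA genes, 2290 had at least 1 of the 2528 peaks, or 18.5% (interval 17.8 to 19.2). A further set of peaks was removed by the rule: 3765 peaks lay within 1 kb of an lncRNA bound, and 1237 of them (32.9%) were also within 1 kb of a protein-coding bound. With those included, 3345 lncRNA genes, or 27%, had an end peak. Among the genes with a peak from the rule, 2010 had 1, 245 had 2, 33 had 3 and 2 had 4. There were 79 peaks at bounds of 2 lncRNA genes at once, and none at more.

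Most of these genes are known by provisional symbols (Gm or LOC numbers, or names ending in Rik). The 462 genes with other symbols had a peak in 103 cases, 22.3% (interval 18.7 to 26.3), and the 11928 provisional ones in 2187 cases, 18.3%. Chromosome 14 had the lowest share of lncRNA genes with a peak, 14.8%, and chromosome 16 the highest, 22.2%, around a chromosome median of 18.4%.

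Accessible regions sat mainly at the starts of lncRNA genes. The strand is known for 9277 of the lncRNA genes (74.9%), those with a RefSeq promoter. None of the chromosome 18 lncRNA genes named in this report has a known strand. That chromosome may therefore be largely missing from results that use the strand. Of 1950 peaks whose nearest lncRNA bound belongs to such a gene, 1323 or 67.8% (interval 65.7 to 69.9) lay at the start and 627 at the terminal end. Start peaks were also better centred. Their midpoint was a median of 304 bp from the bound, against 504 bp at terminal ends, and 62.4% of them covered the bound itself, against 28.7% at terminal ends. The midpoint lay outside the gene in 47.9% of start peaks and 46.4% of terminal ones.

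The same was seen gene by gene. Among 5835 lncRNA genes at least 4 kb long with both bounds over 1 kb from protein-coding bounds, 867 had a peak at the start (14.9%, interval 13.97 to 15.8) and 362 at the terminal end (6.20%, interval 5.61 to 6.85). Both ends were accessible in 83 genes, the start alone in 784 and the terminal end alone in 279. Protein-coding genes of at least 4 kb, counted without an exclusion, had a start peak in 59.3% of 13376 cases and a terminal peak in 7.18%. Coverage gave the same picture, since 10.1% of the lncRNA starts were covered by a peak, against 1.90% of the terminal ends, and 4 to 5 kb away a median of 2.83% of positions around starts and 2.95% around terminal ends were covered.

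**Figure D1:**
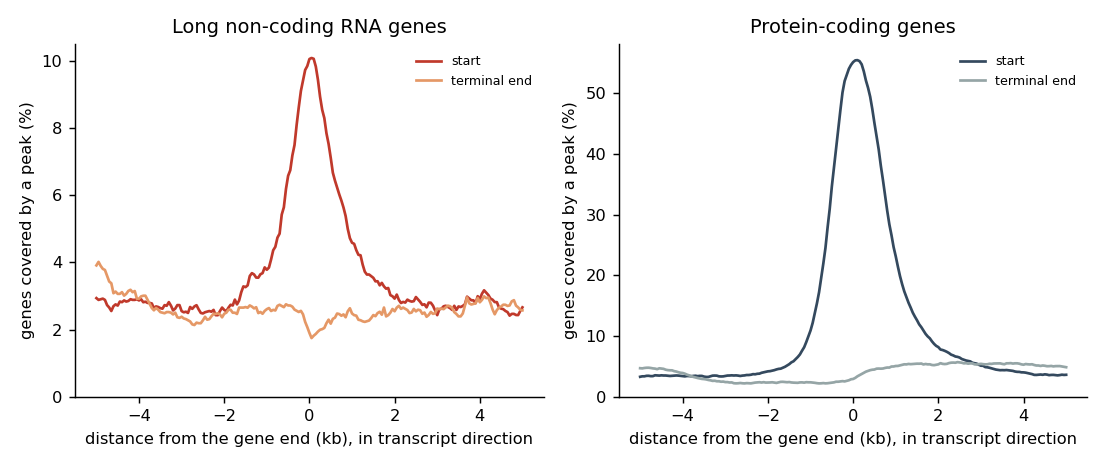
Share of genes covered by a peak (vertical axis, percent) by distance from the start or terminal end (horizontal axis, kb, in the direction of transcription), for 5835 lncRNA genes on the left and 13376 protein-coding genes on the right, with different vertical scales; positions within 1 kb of protein-coding bounds are left out on the left. The lncRNA starts form a single summit of 10.1%, the protein-coding starts one of 55.5%, and terminal ends form none at the bound.

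In width, lncRNA end peaks lay between those of protein-coding gene ends and those away from genes. Their median was 676.5 bp (quartiles 407.75 and 1120.25 bp), against 1197 bp for the 11264 peaks at protein-coding ends and 523 bp for the 57086 peaks over 1 kb from every gene end. Peaks at least 2 kb wide made up 6.57% of lncRNA end peaks (166), 15.0% of protein-coding end peaks and 2.99% of peaks away from ends. The list's smallest width, 200 bp, was held by 107 lncRNA end peaks (4.23%), against 7.26% of those away from ends. Start peaks had a median of 769 bp and terminal peaks 597 bp, and 116 start peaks (8.77%) but 22 terminal peaks (3.51%) reached 2 kb.

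**Figure D2:**
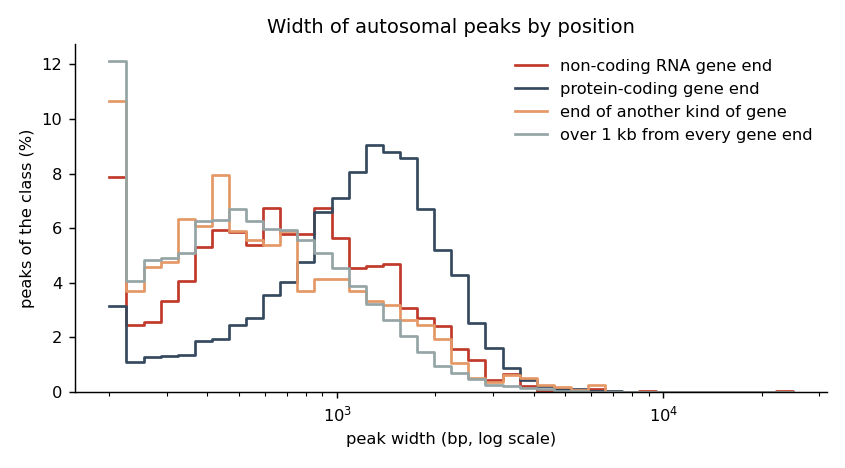
Distribution of peak width (horizontal axis, bp, log scale) as the percent of peaks in each of 4 position classes (vertical axis). The lncRNA end peaks, with a median of 676.5 bp, lie between the protein-coding end peaks (1197 bp) and the peaks over 1 kb from every gene end (523 bp), and all classes pile up at the smallest width of 200 bp.

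Where an lncRNA gene begins relative to protein-coding genes went along with how often its start was open. Of 8041 lncRNA genes with a known strand and a start over 1 kb from protein-coding bounds, 1272 (15.8%) had a start peak. The share was 21.4% (34 of 159, interval 15.7 to 28.4) for genes lying head to head with a protein-coding start within 5 kb. For genes outside protein-coding genes with any other bound within 5 kb it was 20.9% (66 of 316, interval 16.8 to 25.7). It was 18.99% (333 of 1754, interval 17.2 to 20.9) for those inside a protein-coding gene on the opposite strand, and 8.33% (16 of 192, interval 5.19 to 13.1) for those inside one on the same strand. The 5256 genes over 5 kb from every protein-coding bound had a start peak in 14.6%. CpG content moved with these classes: an observed to expected ratio of at least 0.6 was found in 13.1% of head-to-head promoters, 13.1% of those with another bound within 5 kb, 12.1% of promoters on the opposite strand, 7.45% on the same strand and 5.46% far from protein-coding genes. Among promoters below 0.6 the shares with a start peak were 18.05% head to head, 15.5% with another bound within 5 kb, 13.2% on the opposite strand, 5.75% on the same strand and 13.1% far from protein-coding genes. Short genes had open starts somewhat more often, 20.2% of 803 genes of up to 2000 bp, against 14.8% of 2485 genes between 10000 and 30000 bp.

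As for the peaks themselves, 820 of 2528 (32.4%) had their midpoint inside a protein-coding gene, against 48.9% of peaks away from gene ends. The nearest protein-coding bound was a median of 22265 bp away (quartiles 7133 and 62198 bp), and 384 peaks (15.2%) were over 100000 bp from any.

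CpG-rich lncRNA starts were open far more often than CpG-poor ones. A promoter sequence at the gene's outer start was found for 1234 lncRNA genes with a start peak and 6543 without. The observed to expected CpG ratio had a median of 0.333 with a peak, against 0.209 without, and the GC content a median of 50.7%, against 47.0%. A ratio of at least 0.6 was reached by 23.7% of promoters with a start peak, against 4.57% of those without. For protein-coding genes the figures were 74.6% with and 12.3% without. Read the other way, 9.51% of 3429 lncRNA starts with a ratio below 0.2 were open (interval 8.57 to 10.5), compared with 7.37% of protein-coding starts in that range. At 0.8 or more, 63.4% of 227 lncRNA starts were open (interval 57.0 to 69.4), compared with 89.6% of protein-coding starts. Open starts with a ratio of at least 0.6 had wider peaks, with a median of 1239 bp, against 727.5 bp below it.

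**Figure D3:**
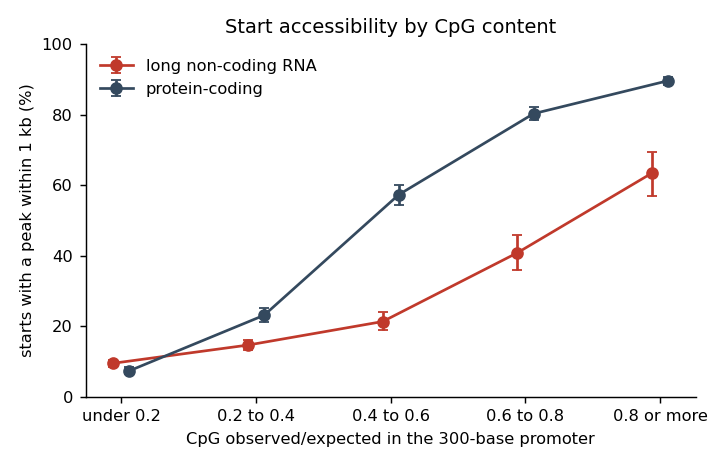
Share of gene starts with a peak within 1 kb (vertical axis, percent, bars are 95% Wilson intervals) in 5 ranges of the CpG observed to expected ratio of the promoter (horizontal axis), for lncRNA genes over 1 kb from protein-coding bounds and for protein-coding genes. The share grows with CpG in both kinds, reaching 63.4% for lncRNA and 89.6% for protein-coding starts, and the lncRNA points lie lower from the 0.2 to 0.4 range upward.

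Of the 7 motifs, the GC box, bound by Sp and KLF factors, differed most between open and closed lncRNA starts. It was in 26.6% of promoters with a start peak, against 7.86% of those without and 36.0% of all 31396 promoters of the same length. The AP-1 motif, bound by Fos and Jun dimers, was in 13.1% with a peak, against 9.81% without and 7.84% of all promoters. The E-box was in 7.78%, against 5.12% without and 7.14% of all. In protein-coding promoters the AP-1 motif was in 5.17% where the start had a peak, against 10.9% where it had none. Within ranges of CpG content, protein-coding starts with the motif were open in these shares: 9.94%, against 7.37% of all, below a ratio of 0.2, 22.3%, against 23.1%, in the next range, 50.6%, against 57.3%, between 0.4 and 0.6, 78.5%, against 80.2%, between 0.6 and 0.8, and 90.0%, against 89.6%, above. The forkhead motif, of the family to which Foxc1 belongs, was in 4.70% of open lncRNA promoters, against 5.06% of the others and 3.71% of all. The NFAT core was in 24.8%, against 26.4% of the others and 21.5% of all, the CCAAT box in 35.8%, against 36.1% and 37.3%, and the TATA box in 15.0%, against 17.1% and 13.6%.

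The shares were also taken within classes of CpG content. Among lncRNA promoters with a CpG ratio below 0.6, 19.5% of 775 with an AP-1 motif had a start peak (interval 16.8 to 22.4), against 12.3% of 6410 without the motif (interval 11.5 to 13.2). In the same promoters 25.7% of 572 with a GC box had a start peak, against 12.01% without it, while for the forkhead motif the shares were 13.5% with it, against 13.1% without it. At a ratio of 0.6 or more the order differed for AP-1, with 37.9% of 29 promoters open with the motif (interval 22.7 to 56.0), against 50.1% of 563 without it (interval 46.0 to 54.2). Between 0.6 and 0.8, 6 of 23 lncRNA promoters with AP-1 were open (26.1%), against 40.8% of all in that range. At 0.8 or more it was 5 of 6 (83.3%), against 63.4% of all, so the order was not the same within this class. For the forkhead motif 26.8% of 41 such promoters were open (interval 15.7 to 41.9), against 51.2% of 551 without it (interval 47.0 to 55.3). The GC box kept its order there, with 67.0% of 270 open, against 34.8% of 322 without it. With provisional symbols left out, which leaves 66 open and 183 closed starts, several motif differences between open and closed starts changed sign or size. AP-1 came to -0.621 percentage points (interval -7.13 to 8.89), against 3.32 with all symbols. The CCAAT box came to 16.3 points, against -0.25 with all symbols, the TATA box to 4.52, against -2.11, and the NFAT core to -11.5, against -1.61. With all symbols, the intervals of the CCAAT box, the TATA box and the NFAT core spanned both signs. A match is a description of letters in a window of 300 bases and not a binding site.

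Well-known lncRNA genes were grouped in 6 lists by role, which were chosen with earlier results of these data known. Of the 104 symbols listed, 83 were found among the annotated genes, with or without a peak, and the shares are of these. A peak from the rule was found in 18.5% of all lncRNA genes, and in 22.3% of the 462 without a provisional symbol. Beside these, shares were 72.2% for small nucleolar RNA hosts (13 of 18), 57.1% for nuclear or broadly expressed lncRNAs (4 of 7) and 55.6% for growth, stress and lineage genes (5 of 9). They were 37.5% for imprinted genes (3 of 8), 18.8% for pluripotency-associated transcripts (3 of 16) and 12% for genes beside developmental regulators (3 of 25). Snhg14, a host by its name but listed with the imprinted genes, had no end peak. The lists are short, so the intervals are wide, for example 4.17 to 30.0% for the last. With end peaks close to protein-coding genes counted as well, the shares, beside 27% of all lncRNA genes, were 88.9% for the hosts, 71.4% for nuclear or broadly expressed genes, 55.6% for growth, stress and lineage genes and 37.5% for imprinted genes. On that count the genes beside developmental regulators had 32% (8 of 25) and the pluripotency-associated transcripts 18.8%.

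**Figure D4:**
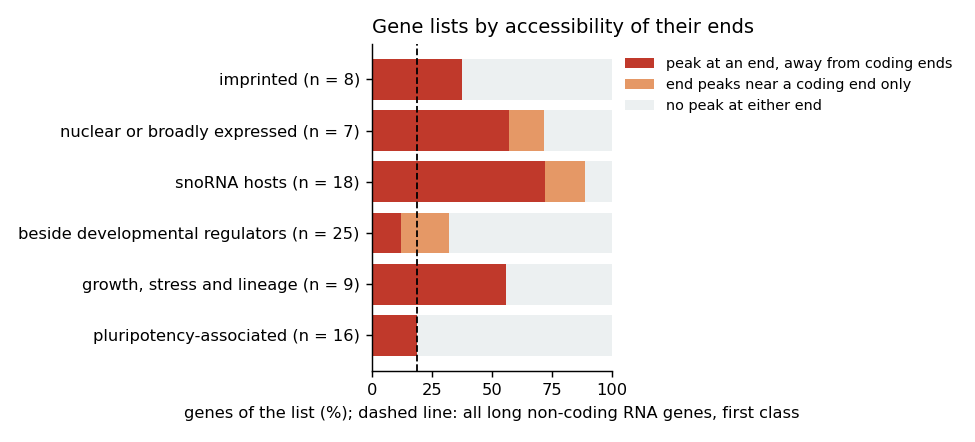
Genes of 6 lncRNA lists (rows, with the number of genes) by whether they had a peak from the rule, end peaks only within 1 kb of a protein-coding bound, or none at either end (horizontal axis, percent of the list). The small nucleolar RNA hosts stand highest at 72.2%, and the genes beside developmental regulators at 12%, or 32% with end peaks near protein-coding bounds, around the dashed line of 18.5% for all lncRNA genes.

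The small nucleolar RNA host genes of this list are mostly short genes, many of them broadly transcribed. Their introns carry the RNAs that guide chemical modification of ribosomal RNA. The peaks of these host genes lay at the start in 9 of the 13. Snhg12, whose promoter is given above, had a peak of 840 bp from chr4:132308348 to 132309187 over its start. Snhg8 had the widest, 3377 bp, which covered the whole gene of 785 bp. The others at starts were Snhg7 with 2414 bp, Snhg5 with 1701 bp, Snhg17 with 1393 bp, Snhg15 with 1317 bp, Snhg9 with 953 bp, Snhg16 with 773 bp and Snhg3 with 676 bp. Each of these 9 covered the annotated start. Snhg4 had 2 peaks at its lower bound, of 1002 and 442 bp, and Epb41l4aos 1 of 1244 bp, in both cases with the strand not known here.

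Gas5, which binds steroid receptors as an RNA, and Zfas1 came in by their terminal ends only, with peaks of 1672 and 524 bp. Their starts were open too, under peaks of 3054 and 939 bp, but these lay 492 bp from a bound of Zbtb37 and 47 bp from one of Znfx1 and so fell outside the rule. Likewise Snhg1, Snhg6 and Snhg18 had only end peaks close to Slc3a2, Mcmdc2 and Sema5a. Snhg11 and Snhg20 had no end peak at all, which left 16 of 18 hosts (88.9%) with an open end of some kind, against 27% of all lncRNA genes.

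Nuclear and broadly expressed lncRNAs included the widest peaks of the 6 lists. Malat1, an abundant nuclear RNA of splicing speckles, had a peak of 2787 bp over its start and one of 5679 bp over its terminal end. Neat1, the scaffold of paraspeckles, lies 22036 bp from the Malat1 start and had a peak of 6560 bp at its lower bound. Its upper bound was covered too, by a peak of 14365 bp from chr19:5835041 to 5849405, whose midpoint is too far inside the gene for the rule. These regions belong to a stretch of 10 peaks with gaps under 12.5 kb that covered 65.5% of 62.96 kb. Oip5os1, also called Cyrano and known for binding a microRNA, had 1172 bp centred 6 bp from its start, and Dancr, which holds human epidermal progenitors undifferentiated, had 1213 bp. Tug1 had 1 peak of 936 bp, 228 bp from a bound of Morc2a and so outside the rule. Miat and Rmst had none at their ends.

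**Figure D5:**
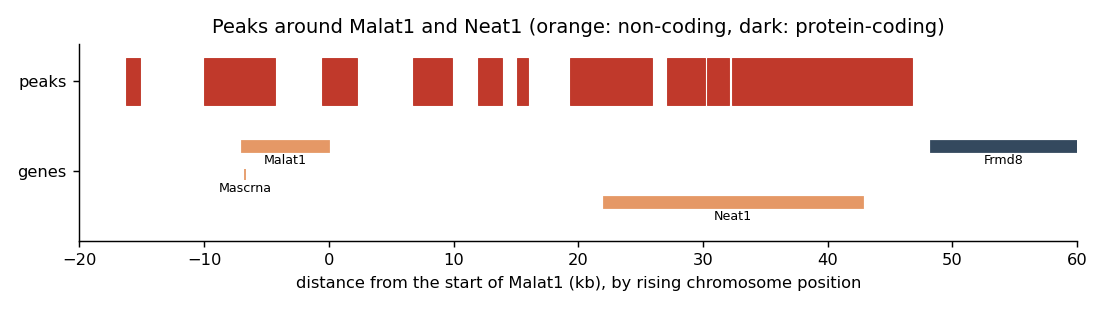
Peaks (upper row) and annotated genes (lower rows) around Malat1 and Neat1, by distance from the Malat1 start (horizontal axis, kb, rising chromosome position). The peaks fill 65.5% of the stretch, with the widest, of 14365 bp, over the upper end of Neat1, and none over the middle of Malat1.

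Imprinted lncRNAs are made from 1 parental allele and several silence their neighbours on it. Kcnq1ot1, which is antisense to Kcnq1, had a peak of 2309 bp over its start, and Airn, antisense to Igf2r, one of 1883 bp over its start. Peg13 had 2276 bp at its upper bound. H19, Meg3, Rian, Ipw and Snhg14 had no end peak. H19, Meg3 and Ipw also had no peak midpoint (0) anywhere inside the gene, Rian had 3 and Snhg14, of 1177441 bp, had 68. The list cannot tell the parental alleles apart.

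Growth, stress and lineage genes were open in 5 of 9 cases. Dleu2, a host of microRNAs often lost in leukaemia, had 2582 bp at its start and 949 bp at its terminal end. Trp53cor1, the p53-induced lincRNA-p21 beside the cell cycle inhibitor gene Cdkn1a, had 582 bp at its upper bound. Bvht, known for cardiac commitment, had 1575 bp, Morrbid, known from short-lived myeloid cells, 951 bp, and Pantr1, beside Pou3f3, 439 bp. Pvt1, the neighbour of Myc, had no end peak but 12 peak midpoints inside the gene, and Lncpint had 9. Tunar and Lncenc1 had no end peak.

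The shares for genes beside developmental regulators and pluripotency-associated transcripts lay near that of all lncRNA genes. Among genes beside developmental regulators Hotairm1 in the Hoxa cluster had peaks of 1124 and 754 bp, Nkx2-2os one of 641 bp over its start, and Zeb2os one of 549 bp. A further 5 genes (Fendrr, Foxd2os, Foxl2os, Gata6os and Wt1os) had end peaks only within 1 kb of a bound of the regulator gene, and 17 had none, among them Hotair, Hottip, Sox2ot, Six3os1 and Dlx6os1. Of the Platr genes, which were named for their expression in embryonic stem cells, Platr6 had 975 and 1394 bp, Platr22 had 436 bp and Platr7 had 374 bp; the other 13 had none. Sgk1, a kinase gene, is the nearest protein-coding gene to Platr6.

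Further named lncRNA genes stood out on reading and were chosen after their values were seen. Tincr, known for promoting epidermal differentiation in human skin, had 1149 bp over its start and 988 bp over its terminal end. Egfros, inside the epidermal growth factor receptor gene Egfr, had 1789 bp over its start and 2792 bp over its terminal end, in a stretch of 24 peaks. Crnde, next to Irx5, had 3366 bp over its start. The same peak also reached over a bound of Irx5, which lay 1048 bp from its midpoint. Chaserr, which restrains Chd2, had 1950 bp, and Lockd, downstream of the cell cycle inhibitor gene Cdkn1b, had 1547 bp. Norad, which keeps Pumilio proteins in check, had 470 bp, and Wincr1, a WNT-induced gene, had 1248 bp over its start.

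The surroundings of stem cell and keratinocyte genes were counted next. Of 35 hair follicle stem cell genes, 15 were the nearest protein-coding gene to at least 1 of the peaks, or 42.9%, against 4 of 28 basal keratinocyte genes (14.3%) and 9.05% of all protein-coding genes. How many lncRNA bounds lie nearby differs as well, since 26 of the 35 stem cell genes and 17 of the 28 keratinocyte genes were nearest to at least 1 such bound. Among genes with such a bound the shares were 57.7% for the stem cell list and 23.5% for the keratinocyte list, against 26.0% of all protein-coding genes. Per 100 such bounds there were 17.3 peaks for the stem cell list (26 peaks, 150 bounds), 18.6 for the keratinocyte list (11 peaks, 6 of them at Egfr, 59 bounds) and 11.2 for all protein-coding genes.

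Each gene named next is only the protein-coding gene with the nearest bound, and distances run from the peak midpoint to that bound. A midpoint can lie inside the gene. For Lhx2, a stem cell transcription factor gene, Gm27197 had 2495 bp over its start, with the midpoint inside Lhx2 and 12019 bp from its bound. Gm13584 had 698 bp at its terminal end, also inside Lhx2 and 9801 bp from the other Lhx2 bound. At Tbx1, another such factor gene, Gm35369 had 2244 bp over its start, with the midpoint inside Tbx1 and 1802 bp from its bound. Gm35369 also had 200 bp at its other end, outside Tbx1. Barx2 had Gm31497 with 1757 bp at the start and 1298 bp at the terminal end, 6942 and 3016 bp from its bound. Both of these midpoints lay inside a protein-coding gene. Gm16897 had 1787 bp over its start, 15561 bp from the marker gene Cd34. A430048G15Rik had 1458 bp, 119844 bp from Bmp2, and Gm31845 had 2091 bp, 33884 bp from Ets2. At 36754 bp from Sox9, 1700012H19Rik had only 227 bp. Among keratinocyte genes, 6 of the 11 peaks lay at Egfr, at Egfros, Gm39583 and Gm39584. The laminin gene Lama3 had Gm29200 with 3493 bp, 78647 bp from its bound, with the midpoint inside a protein-coding gene. Klf5 had Gm34061 and Gm41230, with 1754 and 1074 bp, at 265898 and 208746 bp from its bounds. Not every peak nearest to a listed gene is named here. Among those left out, Gli2 had 1541 and 200 bp, Sfrp1 397 bp, Sox21 258, 200 and 427 bp, and Grhl2 717 and 387 bp. Of these, the 1541 bp peak at Gli2 and the 427 bp peak at Sox21 had midpoints inside a protein-coding gene.

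Of the 10 widest lncRNA end peaks, 5 lay in stretches of at least 10 peaks. Gm33862, inside the protein-coding gene Sfi1 on chromosome 11, had a peak of 22612 bp, Gm21847 on chromosome 5 had 8941 bp and Gm40467 on chromosome 8 had 6577 bp. Their stretches held 15, 50 and 131 peaks. Neat1, Gm32700 (5912 bp) and Malat1 followed, and the 10 were completed by Gm52117 near the nucleoside enzyme gene Pnp (4665 bp), Gm36470 in the cell cycle kinase gene Cdk6 (4617 bp), Gm33800 at Csrnp1 (4114 bp) and Gm10649 in the mineralocorticoid receptor gene Nr3c2 (4058 bp). In these last 4 the peak covered the lncRNA start. The peaks at Gm52117 and Gm33800 also reached over a protein-coding bound, and so did the widest peak, at Gm33862. The midpoints lay 1639 bp from a bound of Pnp, 1744 bp from one of Csrnp1 and 6079 bp from one of Sfi1. Dense stretches held 213 of the 2528 peaks, or 8.43%, in 132 stretches, against 5.53% of protein-coding end peaks and 9.87% of peaks away from ends.

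Several ends in 1 gene were open more rarely. The most peaks, 4 each, were at A530040E14Rik, in a dense stretch on chromosome 1, and at Gm51701 near the chemokine receptor gene Ccr1, with widths between 346 and 3400 bp. The next 8 by number and then by name had 3 each: 1810073O08Rik, 4930527F14Rik, 5430425K12Rik, 9130024F11Rik, B430319G15Rik, Gm13165, Gm15222 near Bmp4, and Gm16174 near Bcl3. Both bounds had a peak within 1 kb in 245 genes, of which 101 were over 5000 bp long. In a short gene the same 1 peak can stand at both bounds, as at Snhg8, a gene of 785 bp. The 245 are therefore not a count of genes with a separate peak at each end. The 101 are too long for 1 peak to count at both. The longest of these were 9630002D21Rik (140659 bp), Gm30821, Gm17767, Dleu2, Gm51770, Gm29669, 5033421B08Rik, Gm46481, Gm13165 and Gm35190. In 5033421B08Rik the start peak of 2523 bp was wider than the terminal one of 520 bp, whereas in Gm17767 the start peak had 705 bp and the terminal one 2044 bp.

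Peaks were placed by a limit of 1 kb. The 3 peaks just inside it, at Gm13710, Gm45958 and Gm11457, had midpoints 1000, 999 and 999 bp from the bound and widths of 2196, 1459 and 712 bp. The 3 just outside, at A930011G23Rik, Gm26812 and 2310043L19Rik, lay 1001, 1001 and 1002 bp away and were 618, 536 and 613 bp wide.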

How the data were processed

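The submitters' processing notes name mm10 and the tools Bowtie2, bedtools and MACS2. Their versions and settings, and how the runs were joined, were not given in the sources used here. As deposited by the authors, each row holds a region's chromosome, start and end with no other value, so depth is unknown. Starts were converted to 1-based positions, a midpoint placed each peak, and no filter was applied. Gene bounds and promoter sequences came from RefSeq GRCm38.p6; the lncRNA genes and the peak members were chosen by the rule in the report, and members and gene lists with earlier results of these data known. Of 104 listed lncRNA symbols, 83 were found. Named genes were members of the lists, the 10 widest peaks and the 10 genes with the most peaks. Up to 10 long genes open at both ends and 3 peaks on either side of the limit were also named. Of the peaks nearest to stem cell or keratinocyte genes, only some were named. Other named genes were chosen after seeing values. Each peak went to its nearest lncRNA bound. Dense stretches are 10 or more peaks with gaps under 12.5 kb. Placement was checked on planted peaks. Python 3.11.15, pandas 2.3.3 and scipy 1.17.1 were used. Columns of per-sample values not used numbered 0. The comparison of knockout with control could not be made.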

Additional observations from a re-analysis of the deposited data

How the results depend on the processing

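Start peaks outnumbered terminal peaks under all 8 alternatives tried. With windows of 500 and 2500 bp there were 1664 and 4268 peaks, 13.0% and 26.8% of genes with a peak, median widths of 742.5 and 625.5 bp, and 75.3% and 59.1% of peaks at starts. Counting any base of a peak in the window gave 21.9% of genes, 729 bp and 65.3%. Without the exclusion of protein-coding ends the values were 27.0% of genes, 868 bp and 74.99%. Without peaks of the smallest width the median was 700 bp, and without dense stretches 17.2% of genes had a peak. Leaving out provisional symbols gave 114 peaks, 22.3% of genes, 934 bp and 75% at starts. Genes of at least 4 kb, a setting chosen after seeing the data, gave 69.3%.

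The GC box differed between open and closed starts by 18.7 percentage points, by 12.3 on the gene's strand alone and by 36.0 without provisional symbols. Without these symbols (66 open and 183 closed promoters) 3 differences changed sign: AP-1 to -0.621 from 3.32 points, the CCAAT box to 16.3 from -0.25 and the TATA box to 4.52 from -2.11. With all symbols the intervals of the CCAAT box (-3.13 to 2.70) and the TATA box (-4.21 to 0.172) spanned both signs. Without provisional symbols those of AP-1 and the TATA box (-4.89 to 16.3) did. The forkhead difference was -2.31 and the NFAT core -11.5 points; the causes were not tested. Width was the only measure of a peak, and whether it follows signal strength could not be checked. Weak regions cannot be told from low depth. No paired analysis was possible because the 4 runs share 1 list.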

Other observations

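The X chromosome lies outside the rule. By the same criteria 47 peaks lay at ends of 42 of its 289 lncRNA genes, 14.5% (interval 10.9 to 19.1), with a median width of 560 bp. Xist, the RNA that coats the inactive X chromosome of female cells, had 2 narrow peaks at its upper bound, of 346 and 200 bp. Its neighbours Jpx and Ftx had 1 each, of 899 and 678 bp. Firre, which also acts on the inactive X, had 1441 bp at its upper bound, and Kantr 1082 bp. No test was made.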
